A study of Mus musculus with 8 samples.

Results

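The goblet cells described here were epithelial cells of colon assembloids that were chosen by their measured counts. A barcode passed with at least 500 genes, at least 1000 unique molecular identifiers (UMIs, each a count of 1 captured RNA molecule) and at most 10% of its UMIs from mitochondrial genes. An epithelial cell carried at least 1 UMI of Epcam and at most 1 UMI of Col1a1 and Col1a2 together. A goblet cell was an epithelial cell in which Muc2 and Spink4 together made up at least 0.8% of the UMIs. In all, 947 of 31781 assembloid epithelial cells met the rule, 637 of 25129 in replicate 1 and 310 of 6652 in replicate 2. All 8 libraries of the series together held 74808 cells that passed the filters.

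Goblet cells make the mucus that covers the colon epithelium. Their main product is MUC2, a gel-forming mucin that is folded in the endoplasmic reticulum, decorated with sugar chains in the Golgi apparatus and stored in large granules together with smaller secreted proteins. The cells arise from crypt progenitors that escape Notch signals and express the transcription factor ATOH1, and SPDEF acts later in their maturation. Muc2 lies at chr7:141690340-141754693 and Spink4, a secreted peptide of the Kazal type, at chr4:40920052-40931395 (GRCm38 with GENCODE M21, as for all gene positions here).

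The study compared mouse colon epithelium in 3 settings, and its methods name C57BL/6 mice for the epithelial cells that were sequenced. Assembloids were epithelial organoids mixed with cultured primary colon stromal cells in Matrigel and grown without the Wnt surrogate, CHIR-99021, R-spondin 1 and noggin, organoids were grown without stroma, usually with these factors, and tissue cells came from crypts taken directly from the colon. Cells were profiled with droplet-based single cell RNA sequencing, with 2 libraries in each setting, which the study calls biological replicates, and 2 further libraries of assembloid stroma. Assembloids were digested with Liberase and then TrypLE. Tissue crypts were freed with EDTA and DTT before TrypLE, and organoids were treated with TrypLE only. Dissociation and setting therefore cannot be told apart. The stroma of assembloids was thus cultured cells and not the stroma of intact colon, and the labels do not say whether the 2 epithelial libraries of a setting came from separate mice or cultures, so that p-values measure only the spread between these libraries.

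Depth differed strongly. The median goblet cell carried 3460 and 19439.5 UMIs in the assembloid libraries, and 1604.5 and 3199 UMIs in the tissue libraries. Barcodes under 1000 UMIs, which the filter left out and in which RNA free in the suspension weighs most, held Muc2 and Spink4 at 0.102% and 0.143% of their UMIs in assembloids but at 0.888% and 0.778% in tissue, the latter close to the threshold of the rule. Of tissue epithelial cells under 2000 UMIs, 56.2% and 52.6% met the rule, against 3.07% and 0.899% in assembloids. The goblet shares and the tests against tissue were therefore repeated with cells of at least 5000 UMIs. No pair of libraries shared more than 0.98% of the barcodes of the smaller one.

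Goblet cells made up 2.53% (95% exact binomial interval 2.34 to 2.74%) and 4.66% (4.17 to 5.20%) of epithelial cells in the 2 assembloid libraries. The same rule took 38.9% (37.4 to 40.5%) and 42.4% (40.9 to 44.0%) in tissue and 0.292% (0.160 to 0.489%) and 0.312% (0.191 to 0.482%) in organoids, which are 14 and 20 cells. The intervals cover counting error only. The assembloid values lay above both organoid values and below both tissue values, also among cells of at least 5000 UMIs, where they were 2.51% and 5.33% in assembloids, 28.9% and 35.5% in tissue and 0.298% and 0.469% in organoids. The shares are set by the rule and were not tested. No goblet cell was found in the stromal libraries.

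**Figure D1:**
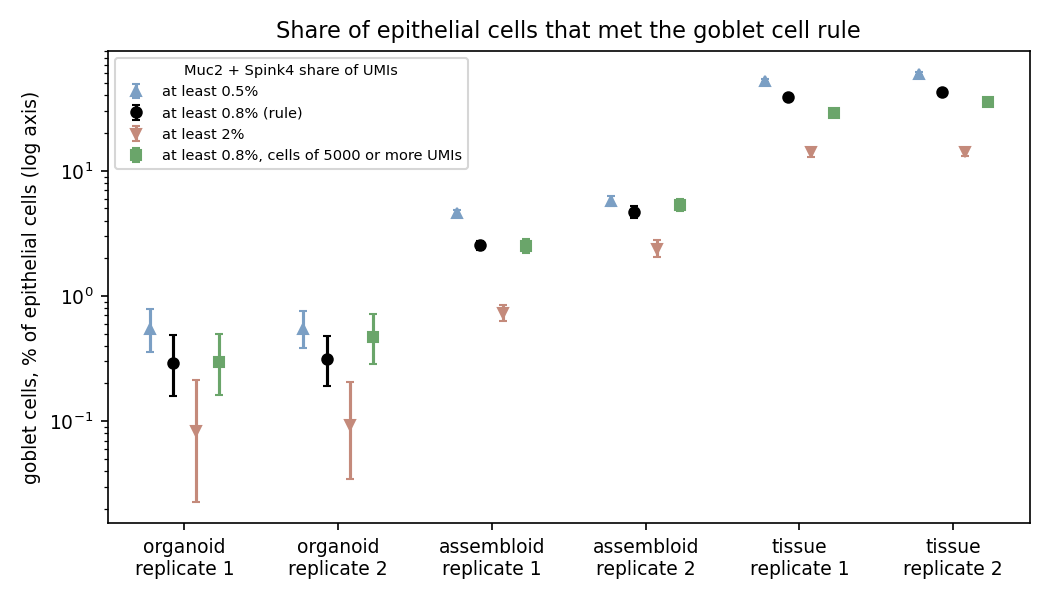
Percent of epithelial cells that met the goblet cell rule in each library, on a log axis, with exact 95% binomial intervals that cover counting error. Black circles are the rule, triangles a threshold of 0.5% or 2%, and squares the rule in cells of at least 5000 UMIs. Assembloid libraries lie between organoid and tissue libraries under each of these settings.

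The rule used both marker genes, so their levels only describe the choice. In assembloid goblet cells, Spink4 stood at 23093 and 23773 and Muc2 at 4307 and 6224 CPM (UMI counts scaled to a common library total after TMM normalisation, the scale of all levels below). In tissue goblet cells Spink4 stood at 15099 and 13198 CPM and Muc2 at 15573 and 14362 CPM. Spink4 lay higher and Muc2 lower in both assembloid libraries than in both tissue libraries. In replicate 1, 71 of 637 assembloid goblet cells had Spink4 without any Muc2, and no cell of replicate 2 did. No member had Muc2 without Spink4. Within the assembloid cells, 146 and 25 lay just inside the threshold, with 0.8 to under 1.0% of UMIs from the marker pair, and 283 and 45 just outside it, with 0.6 to under 0.8%. Tff3 made up 6986 and 7899 CPM without TMM just inside and 4808 and 6907 just outside. Zg16 made up 715 and 1192 CPM just inside and 554 and 423 just outside, and Car1, a colonocyte gene, 609.8 and 203 just inside and 994 and 1234 just outside. Fcgbp made up 623 and 770 CPM just inside and 289 and 716 just outside, nearly level in replicate 2. Spdef made up 88.8 and 82.6 CPM just inside and 38.2 and 98 just outside, so that in replicate 2 it was higher outside.

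The label was checked against the 8 goblet markers that the rule did not use. As a description with no test, all 8 were over 2 times higher in goblet cells than in the other epithelial cells of both assembloid libraries. Tff3, a trefoil peptide of the mucus, stood at 15208 and 17769 CPM in goblet cells and 545 and 476 CPM in the other cells. Agr2, a disulphide isomerase that MUC2 folding needs, stood at 8757 and 16088 against 433 and 524 CPM. Fcgbp, a mucus protein cross-linked with MUC2, stood at 977 and 1525 against 38.2 and 44.7 CPM. Zg16, a lectin that binds Gram-positive bacteria, stood at 2491 and 4053 against 91.6 and 48.99 CPM. In each of these 4 genes the classes did not overlap. Levels are CPM of 3′ ends and are compared between classes or settings, not between genes.

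Among genes at 100 CPM or more in goblet cells of both libraries, the 12 highest against other assembloid cells were mostly secreted products. Beside Tff3, Agr2, Fcgbp and Zg16 they were Retnlb, Ang4, Sval1, Reg4, Klk1, Clca1, Ramp1 and Spdef. Retnlb, an antibacterial resistin-like protein, had log2 ratios of 5.98 and 6.71 in the 2 libraries. Sval1 had 5.63 and 6.69, Ang4 (an antimicrobial ribonuclease) 4.92 and 5.46 and Clca1 (a secreted protease that processes MUC2) 4.16 and 5.54. Ramp1, a subunit of the CGRP receptor, had 4.79 and 5.47. Spdef had 4.61 and 4.86. Among genes at 100 CPM or more in the other cells of both libraries, the 6 lowest were 1810065E05Rik, Cx3cr1, Car1, Krt20, Muc3 and Dmbt1. Car1, Krt20 and Muc3 belong to absorptive colonocytes, and their log2 ratios were -1.74 and -2.77, -1.36 and -2.03 and -1.44 and -2.22. Guca2a, from the same list of colonocyte markers, went the other way, with 2.15 and 2.69. Cx3cr1, a chemokine receptor best known from macrophages, had -3.11 and -2.55. The order of these genes follows from cells that the rule had picked. Genes of the rule and mitochondrial, ribosomal protein and immunoglobulin genes were left out here and in the rankings by fold change and interaction below.

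The main comparison asked how goblet cells of assembloids differ from goblet cells of colon tissue that met the same rule. UMIs were summed over the goblet cells of each library and compared over 13281 genes by edgeR's quasi-likelihood test, with Benjamini-Hochberg adjustment. At an adjusted p under 0.05, 3389 genes (25.5%) were higher and 3043 (22.9%) lower in assembloids, so that close to 1 in 2 genes differed and a count of list members has to be read against these shares. With cells of at least 5000 UMIs 3496 were higher and 3152 lower. Calls fell to 1909 without tissue replicate 1 and 2374 without tissue replicate 2, which leaves 1 tissue library, and stood at 7403 and 7301 without assembloid replicate 1 or 2. Scaling mattered: the median log2 fold change of all genes was -0.03 with TMM and -0.60 when libraries were scaled by total UMIs, which gave 1727 genes higher and 6161 lower. Differences of less than about 0.6 on the log2 scale thus depend on the scaling. A gene could pass the filter on low counts through 1 setting alone, which fixed the direction of genes nearly absent from the other.

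Of 19 other secreted products tested, 5 were higher and 10 lower in assembloid goblet cells, with a median log2 fold change of -0.48. The shares of all genes were 25.5% and 22.9%. Those that rose include Tff3, at chr17:31125306-31129646, which stood at 15208 and 17769 CPM in assembloids against 4978 and 3712 CPM in tissue, with no overlap (log2 fold change 2.00 ± 0.25, SE, adjusted p = 0.0016). Each SE in this report is approximate. It is the absolute log2 value divided by the square root of the F statistic of the quasi-likelihood test. Retnlb, at chr16:48816856-48818892, stood at 308 and 559 CPM against 20.97 and 97.5 CPM (2.96 ± 0.67, adjusted p = 0.013). The 2 tissue libraries differed from each other more, as a ratio, than the assembloid libraries did, and both lay below them. Ang4, one of a family of near-identical genes among which reads may be split, stood at 214 and 312 against 32.2 and 76.4 CPM (2.36 ± 0.39, adjusted p = 0.0041). Agr2 stood at 8757 and 16088 against 6545 and 7816 CPM and did not pass the test (log2 fold change 0.86 ± 0.30, adjusted p = 0.054). It did pass under several alternatives and not under the rest. Those it passed include cells of at least 5000 UMIs (0.89), a threshold of 2% (1.11) and cells without Mki67 or Top2a (0.92). Without assembloid replicate 1 its log2 fold change was 1.21.

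The larger group went the other way. Clca1, at chr3:145003817-145032776, stood at 114 and 282 CPM in assembloids against 1381 and 1479.9 CPM in tissue (-2.78 ± 0.38, adjusted p = 0.0021). Sval1 stood at 254 and 633 against 3722 and 3863 CPM (-3.03 ± 0.40, adjusted p = 0.0019), and Klk1, tissue kallikrein, at 265 and 389.9 against 2394 and 2344 CPM (-2.78 ± 0.22). All assembloid values of these 3 genes lay below all tissue values. Reg4, a secreted lectin of deep crypt secretory cells, fell by 2.30 on the log2 scale, from 1997 and 1819.7 CPM in tissue to 229 and 509.9 CPM. Zg16, at chr7:127050156-127087328, stood at 2491 and 4053 against 8123 and 8304 CPM (-1.26 ± 0.25, adjusted p = 0.0084), a call that was lost when either tissue library was left out (log2 fold change -1.28 in both). Fcgbp stood at 977 and 1525 against 2058 and 2129.8 CPM (-0.67 ± 0.22, adjusted p = 0.047). That call too was lost without either tissue library, with -0.70 and -0.69, and at a threshold of 2%, with -0.38. The largest fall among them was that of Ccl6, a chemokine, from 1389.8 and 1384 CPM to 57.1 and 57.4 CPM (-4.51 ± 0.18, adjusted p = 8.1e-05).

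**Figure D2:**
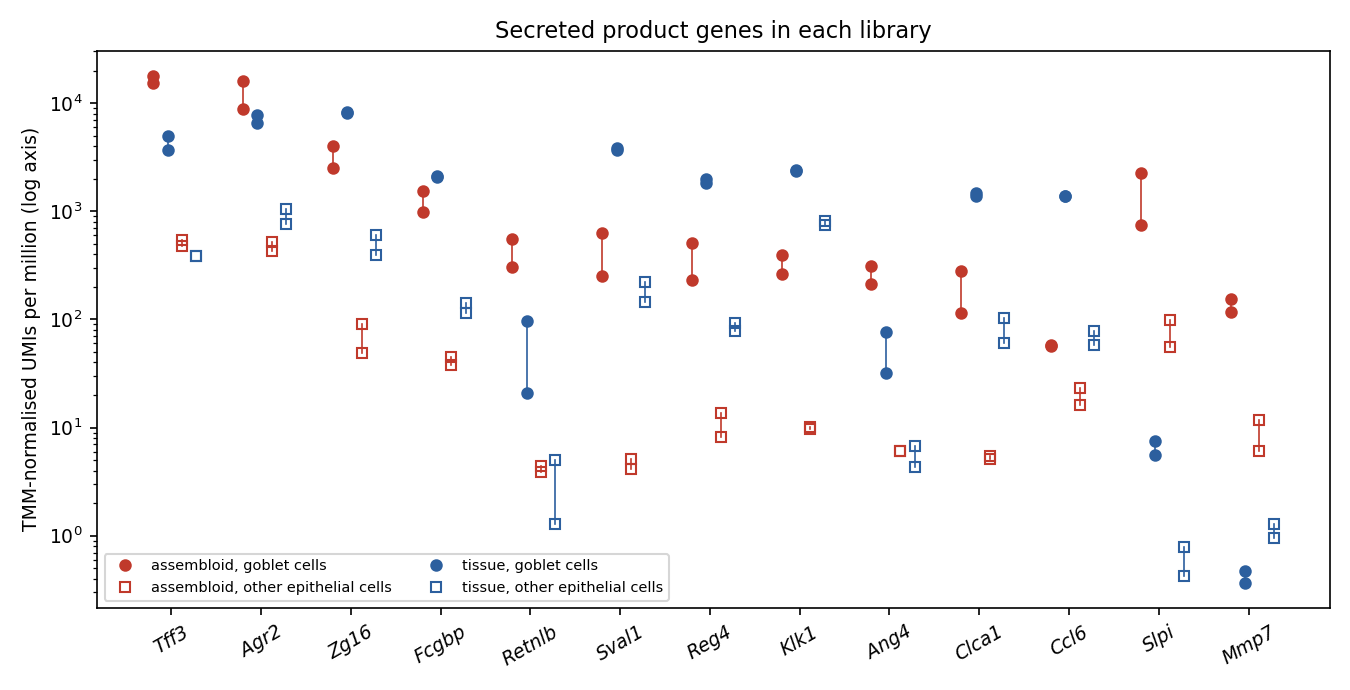
Levels of 13 genes of secreted proteins in goblet cells (filled circles) and other epithelial cells (open squares) of each assembloid (red) and tissue (blue) library, in TMM-normalised CPM on a log axis. Lines join the 2 libraries of a group. Tff3, Retnlb, Ang4, Slpi and Mmp7 are higher and Zg16, Fcgbp, Sval1, Reg4, Klk1, Clca1 and Ccl6 lower in assembloid goblet cells, and most of them are higher in goblet cells than in other cells of the same library.

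Lineage transcription factors were mostly lower. Of 17 tested, 2 were higher and 9 lower, against 25.5% and 22.9% of all genes, with a median log2 fold change of -0.60. Atoh1, which directs cells to the secretory lineage, stood at 21.6 and 38.2 CPM in assembloids and 123 and 119.6 CPM in tissue (-1.92 ± 0.23, adjusted p = 0.0013). Spdef stood at 125 and 193 against 110.3 and 159.7 CPM and overlapped between the settings (0.32 ± 0.24, adjusted p = 0.3). Without assembloid replicate 1 it was called higher, at 0.56, and without assembloid replicate 2 the difference was -0.036. Scaled by total UMIs it was -0.25. Creb3l1 and Creb3l4, membrane-bound factors of secretory cells, fell by 1.10 and 1.95 on the log2 scale, the first of them not called without tissue replicate 1, at -1.08. Sox9, a factor of crypt base cells, fell by 2.16 and Klf4, a factor of differentiated cells, by 1.06. The 2 that rose were Cdx2, from 21.3 and 35.9 to 54.7 and 95.6 CPM, and Mxd1, from 33.3 and 39.5 to 161 and 96.7 CPM. The Cdx2 call was lost without tissue replicate 1, at 1.14, and with cells thinned to 1000 UMIs, at 0.25 instead of 1.48.

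Of 11 Notch pathway genes tested, 2 were higher and 3 lower, shares close to those of all genes (25.5% and 22.9%). The ligand Dll1 fell from 16.6 and 12.8 to 0.902 and 0.926 CPM, which in assembloids rests on 3 and 5 UMIs. Dll4 fell from 16.1 and 15.7 to 1.80 and 3.52 CPM and Lfng, a sugar transferase that modifies Notch, from 15.4 and 15.5 to 3.31 and 2.59 CPM. Jag2 rose from 0.677 and 0.803 to 6.91 and 7.41 CPM and Rbpj, the DNA-binding effector, from 30.7 and 25.3 to 96.2 and 67.04 CPM. Jag2, on 11 and 12 UMIs in tissue, passed the filter on low counts only through assembloids, and Dll1 only through tissue. The directions of Jag2 and Dll1 were thus fixed by the filter.

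Among 34 tested genes of the glycosylation list 7 were higher and 19 lower, against 25.5% and 22.9% of all genes, with a median of -0.58. Members of this list, Fut8 and St6gal1 among them, are not limited to mucin O-glycans. B3gnt6, the core 3 synthase of colonic mucins, fell from 13.9 and 15.8 to 0.301 and 0.556 CPM, on 1 and 3 UMIs in the assembloid libraries. It passed the filter on low counts only through tissue, so that its direction was fixed. St6gal1, which adds terminal sialic acid, fell from 164 and 154 to 3.31 and 11.1 CPM (-4.28 ± 0.36, adjusted p = 4.1e-04), and the fucosyltransferase Fut4 from 72.7 and 72.8 to 5.11 and 8.70 CPM. In both genes the assembloid libraries lay far below the tissue libraries. Gmds, which makes GDP-fucose, fell from 1838 and 2033 to 628 and 846 CPM. Galnt7 and Fut8 fell by 0.73 and 0.76, calls that ended when either tissue library was left out (Galnt7 -0.66 and -0.85, Fut8 -0.74 and -0.84) and, for Galnt7, with thinned cells (-0.62). Those that rose include Gcnt3, a branching enzyme, from 65.1 and 62.8 to 124 and 198 CPM, B4galt1 from 22.6 and 27.04 to 96.8 and 76.9 CPM and St3gal1 from 0.308 and 1.41 to 7.52 and 6.48 CPM. St3gal1 passed the filter on low counts only through assembloids. The St3gal1 call was lost without tissue replicate 1, at 2.38 instead of 3.11.

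Of 33 genes of protein folding and the secretory pathway 10 were higher and 5 lower, against 25.5% and 22.9% of all genes. The median was 0.34, but scaling by total UMIs turned the counts to 2 higher and 11 lower. Calr, a chaperone of glycoproteins, stood at 928 and 1374 CPM in assembloids and 483 and 561 CPM in tissue (1.22 ± 0.21). Hspa5 stood at 1196 and 1634 against 598 and 766 CPM and Sec61b, a subunit of the translocation channel, at 1484 and 1551 against 717 and 739 CPM. Hsp90b1 had a log2 fold change of 0.79 ± 0.17. The calls of these 4 genes ended when either tissue library was left out. Their folds stayed close (Calr 1.11 and 1.28, Hspa5 0.96 and 1.27, Sec61b 1.12 and 1.12, Hsp90b1 0.70 and 0.83). Scaling by total UMIs also ended the calls of Hspa5 and Hsp90b1, with smaller log2 fold changes of 0.56 and 0.21. Ern2, the mucous cell sensor of unfolded protein, fell from 157 and 139 to 39.4 and 59.8 CPM (-1.49 ± 0.20, adjusted p = 0.0019), and Txndc11 from 97.2 and 131 to 36.98 and 46.5 CPM.

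Granule, exocytosis and ion transport genes gave 7 higher and 14 lower of 30, against 25.5% and 22.9% of all genes. Under scaling by total UMIs 1 was higher and 18 lower. Best2, an anion channel of colonic goblet cells, fell from 204 and 169.9 to 0.902 and 5.56 CPM. The assembloid values rest on 3 and 30 UMIs, and Best2 passed the filter on low counts through tissue. Scin, an actin-severing protein, fell from 146 and 149 to 5.71 and 11.7 CPM and Cftr from 78.1 and 103 to 9.02 and 8.70 CPM. In these 3 genes every assembloid library lay far below both tissue libraries. Slc12a2, a chloride importer, fell by 1.39. Among 5 membrane-bound mucins 2 were lower, the neighbouring Muc3 (349.6 and 321 to 101 and 63.3 CPM) and Muc3a, whose call was lost without either tissue library (-1.01 and -0.98) and with thinned cells (-0.70), and Muc4 and Muc13 had log2 fold changes of -0.39 ± 0.14 and -0.63 ± 0.23 that did not pass the test. Scaled by total UMIs all 5 were lower, and in cells of at least 5000 UMIs 4 were. Muc4 and Muc13 passed when either assembloid library was left out, Muc4 at -0.35 and -0.49 and Muc13 at -0.35 and -1.02.

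Of 17 genes reported for goblet cell subsets, 3 were higher and 8 lower, against 25.5% and 22.9% of all genes. The lower genes included Gsdmc3, which had no UMI in assembloid goblet cells and passed the filter only through tissue. Gsdmc4, a gasdermin of the upper crypt, fell from 99.5 and 109 to 0.902 and 0.370 CPM, and Dhrs9 rose from 1.05 and 2.14 to 18.04 and 25.2 CPM. Gsdmc4, on 3 and 2 UMIs in assembloids, likewise passed the filter only through tissue. Crypt stem cell markers gave 8 lower and none higher of 11, among them Smoc2 (17.4 and 18.9 to 0.902 and 0.556 CPM) and Lrig1 (151 and 152 to 28.6 and 38.5 CPM). In assembloid goblet cells Smoc2 stood at the level of 3 counts and Ascl2 had 0 and 3 UMIs. Such members passed the filter only through tissue, so that their direction was fixed. By edgeR, 2 immediate early genes of 16 were higher and 8 lower.

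Hypoxia response and glycolysis genes moved nearly all in 1 direction, 26 of 27 higher and none lower by edgeR, with a median log2 fold change of 2.65 (2.07 under scaling by total UMIs) and all 27 higher in cells of at least 5000 UMIs. Among all genes 25.5% were higher and 22.9% lower. Slc16a3, a lactate exporter, stood at 98.6 and 124 CPM in assembloids and 0.123 and 0.134 CPM in tissue. The tissue values rest on 2 and 2 UMIs, too few for a fold, so that Slc16a3 passed the filter only through assembloids. Bnip3, a mitochondrial protein induced by low oxygen, stood at 354 and 292 against 3.69 and 2.01 CPM. Adm, the peptide adrenomedullin, stood at 139 and 136 against 0.615 and 1.14 CPM, on 10 and 17 UMIs in tissue. It too passed the filter only through assembloids. Enzymes of glycolysis rose too, Gapdh from 391.8 and 461 to 3538 and 3863 CPM, Ldha from 249 and 298 to 1464 and 1550.5 CPM and the stress gene Nupr1 from 383 and 444.5 to 1649 and 2422 CPM. The other epithelial cells of the same assembloid libraries also carried these genes, with Slc16a3 at 81.7 and 77.5 and Bnip3 at 371 and 277 CPM. In the interaction described further on, 15 of the 27 genes lay above 0 and 3 below, against 9.73% and 5.72% of all genes.

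To show the starts of genes that moved together, the 150 bases before the RefSeq start of the 3 members with the largest fitted rises are given, with the letters ACGTG, the core that hypoxia-inducible factors bind, in capitals wherever they occur on either strand (GRCm38.p6, 5′ to 3′ on the strand of the gene). Slc16a3 lies on the plus strand at chr11:120948917-120949066, Bnip3 on the minus strand at chr7:138909507-138909656 and Adm on the plus strand at chr7:110627507-110627656.
Slc16a3: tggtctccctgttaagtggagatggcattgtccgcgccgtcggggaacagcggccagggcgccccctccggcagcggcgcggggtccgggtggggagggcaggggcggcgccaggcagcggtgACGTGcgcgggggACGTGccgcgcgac
Bnip3: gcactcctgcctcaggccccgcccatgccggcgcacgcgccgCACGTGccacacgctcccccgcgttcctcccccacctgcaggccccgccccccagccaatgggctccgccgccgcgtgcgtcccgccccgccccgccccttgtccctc
Adm: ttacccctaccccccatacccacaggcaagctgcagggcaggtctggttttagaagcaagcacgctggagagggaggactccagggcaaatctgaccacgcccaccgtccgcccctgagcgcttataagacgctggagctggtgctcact
The core occurred 2 times in Slc16a3, starting 27 and 14 bases before the start site, and on both strands of 1 overlapping site in Bnip3, 108 to 103 bases before it. It did not occur in these 150 bases of Adm. Of 27 list members with such a sequence 11 (40.7%) held the core, against 11.2% of all 32851 RefSeq starts, and the list was richer in G and C, with a median of 66% against 54%. The list was chosen as genes of hypoxia response and glycolysis, so that its larger share is not a result of these data. Only the first start of each listed gene was counted, but every start of the background, so that the shares are not measured alike. A match is a description of letters and not of binding.

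Regenerative or fetal-like genes gave 19 of 21 higher and none lower by edgeR (median 2.78), 18 higher and 1 lower in cells of at least 5000 UMIs. Among all genes 25.5% were higher and 22.9% lower, also to be read beside the defence genes below. Ly6a, the surface protein Sca-1, stood at 1181 and 1613 CPM in assembloids and 23.9 and 31.9 CPM in tissue (5.73 ± 0.25, adjusted p = 8.7e-05). Ly6c1 stood at 135 and 127 against 0.369 and 0.602 CPM and Anxa2 at 1117 and 1266 against 226 and 265 CPM. Assembloid and tissue libraries were far apart in each. The other epithelial cells of the same assembloid libraries also carried these genes. Ly6a stood there at 864 and 927, Ly6c1 at 213 and 168 and Anxa2 at 1328 and 1333 CPM. Summed over the list, the level was 19060 and 18070 CPM in assembloid goblet cells and 17420 and 13700 CPM in other assembloid cells. S100a6 and Krt19 rose by 1.66 and 1.42 on the log2 scale, calls lost without tissue replicate 1 (1.64 and 1.22) and, for S100a6, also without replicate 2 (1.63). With cells thinned to 1000 UMIs Krt19 was not called, at 0.62. Ly6c1, on 6 and 9 UMIs in tissue, passed the filter only through assembloids. So did some others of the 19, Msln and Spp1 among them, which had no UMI in tissue goblet cells. Antimicrobial and defence genes gave 11 higher and 3 lower of 17, of which Saa3 and Ifit1 were likewise at 0 in tissue goblet cells. Slpi, an inhibitor of neutrophil proteases, stood at 745 and 2264 against 7.50 and 5.62 CPM (7.89 ± 0.62, adjusted p = 3.2e-04). Pigr, the transporter of IgA, fell from 2395 and 1936 to 409.8 and 510.4 CPM.

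**Figure D3:**
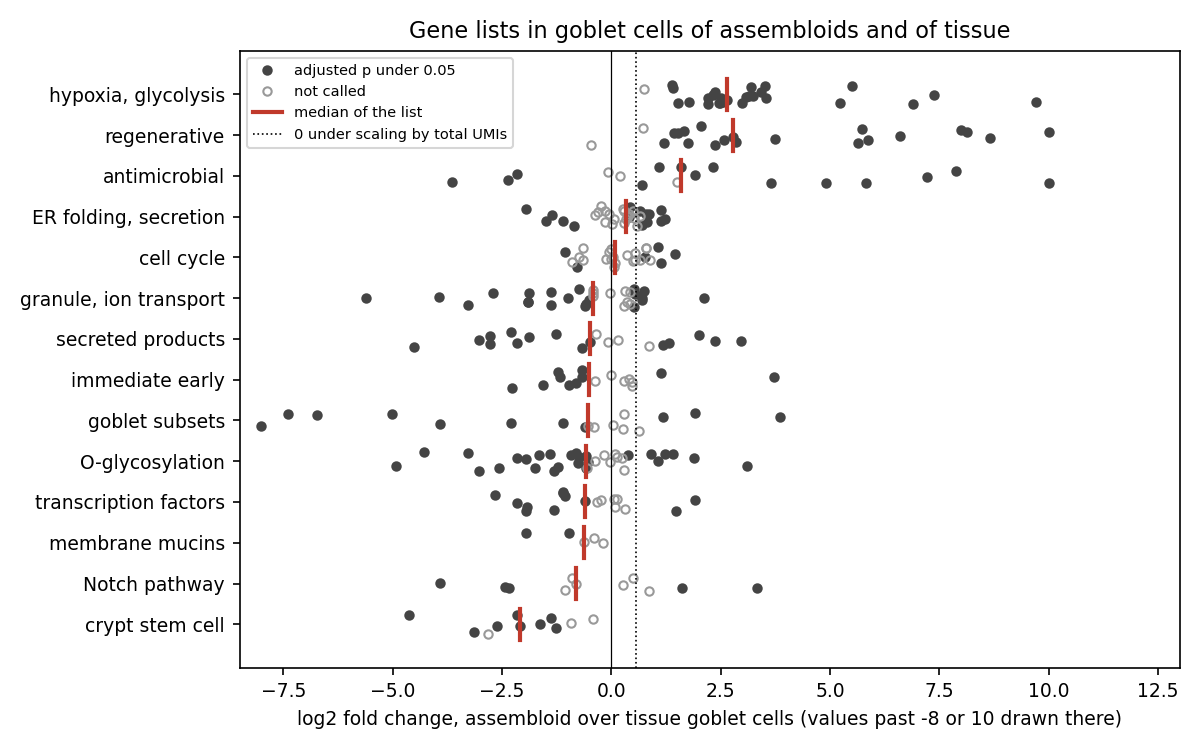
Log2 fold change of each tested member of 14 gene lists, assembloid over tissue goblet cells, with 2 libraries in each setting. Filled points passed an adjusted p under 0.05, open points did not, red bars are list medians and the dotted line is where 0 lies when libraries are scaled by total UMIs. The hypoxia and regenerative lists lie to the right, with medians of 2.65 and 2.78, and the stem cell list to the left at -2.09.

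Called genes with no overlap between the settings and a mean level of at least 6 (log2 CPM) were ranked by log2 fold change. Mitochondrial, ribosomal protein and immunoglobulin genes and the rule genes were left out. The 10 largest rises were Slpi, Ly6a, Sprr2a3, Ero1l, Eif4ebp1, Hspb1, AW112010, Areg, S100a14 and Eno1. Ero1l, an oxidase of the endoplasmic reticulum that low oxygen induces, rose from 29.9 and 32.2 to 974 and 1216 CPM (5.22 ± 0.19). Sprr2a3 belongs to a family of near-identical genes and rose from 32.5 and 35.3 to 954 and 1654 CPM. Areg, a ligand of the EGF receptor, rose from 30.9 and 47.7 to 524 and 463 CPM. Beside Slpi and Ly6a, given above, the remaining 5 genes had log2 fold changes between 3.51 (Eno1) and 4.10 (Eif4ebp1).

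The 10 largest falls were Mptx1, Ccl6, Sycn, Hsd11b2, Ccn3, 9030622O22Rik, Zbtb20, Ptprn2, Adh1 and Cadps2. Mptx1, a mucosal pentraxin, stood at 24058 and 28232 CPM in tissue and had no UMI in the goblet cells of either assembloid library. This makes it at least 35877-fold lower when 3 counts per library are taken as the floor. Mptx1 thus passed the filter on low counts only through tissue. It has a close paralog, with which reads may be confused. Sycn, a protein of zymogen granules, fell from 1121 and 1105 to 40.3 and 55.6 CPM and Hsd11b2, which inactivates glucocorticoids, from 901 and 834 to 34.6 and 67.2 CPM. Ptprn2 and Cadps2, which belong to the dense core vesicle pathway, fell by 3.40 and 3.09. Both sets of 10 were drawn from genes without overlap, so that the separation of the libraries was set by the choice.

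Markers of other cell types were read as summed levels. Of 11 listed fibroblast genes, those of the rule included, and 12 immune genes, 5 and 7 were tested, and several of these passed the filter on low counts only through the assembloid libraries, so that their direction was fixed by the filter. Col3a1, Dcn, Pdpn, C1qb and C1qc had no UMI in tissue goblet cells. Summed over the fibroblast list without the rule genes, the level was 217 and 59.5 CPM in assembloid goblet cells, 275 and 77.2 CPM in the other assembloid cells and 0.369 and 0.937 CPM in tissue goblet cells. The immune list summed to 228 and 136, 295 and 595 and 2.83 and 4.55 CPM, with Cd3e and Cd79a at 0 in assembloid goblet cells. Neither list was higher in goblet cells than in other cells of the same library. Colonocyte markers gave 2 higher and 7 lower of 17 and summed to 1475 and 1557 CPM in assembloid goblet cells against 2770 and 3331 CPM in the other cells. Guca2a made up 399.5 and 691 CPM of the former and 89.3 and 107 CPM of the latter. Enteroendocrine markers gave 1 higher and 4 lower of 11, with sums of 254 and 32.4 CPM in assembloid goblet cells and 123 and 312 CPM in the other cells, so that goblet cells lay above other cells in replicate 1 and below them in replicate 2. They summed to 99.5 and 116 CPM in tissue goblet cells. Tuft cell markers gave 1 higher and 1 lower of 6, with Rgs13, Sh2d6 and Gnat3 at 0. Among all genes 25.5% were higher and 22.9% lower, so that the tuft counts lay under these shares. The part of these cells in the results was not tested.

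Of the Paneth cell list, 3 genes could be tested, of which 1 was higher and 1 lower, against 25.5% and 22.9% of all genes. Mmp7, a protease of Paneth cell granules, stood at 153 and 117 CPM in assembloid goblet cells and 11.8 and 6.09 CPM in other assembloid cells. In tissue goblet cells it stood at 0.369 and 0.469 CPM, on 6 and 7 UMIs, too few for a fold. Mmp7 passed the filter on low counts only through assembloids, so that its direction was fixed by the filter. Itln1, given below, passed it only through tissue. The defining genes Defa17, Defa22 and Defa30 were at 0 in assembloid goblet cells, and Lyz1 stood at 0.301 and 0.741 CPM. Itln1, a lectin of Paneth and goblet cells, fell from 4.37 and 5.42 CPM in tissue to 1.20 and 1.30 CPM (-1.87 ± 0.38, adjusted p = 0.0085), on 4 and 7 UMIs in assembloids. That call was lost without tissue replicate 1 or 2, at -2.03 and -1.76.

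Cell cycle genes gave 4 higher and 2 lower of 25 (1 higher and 8 lower under scaling by total UMIs). With TMM both shares lay under those of all genes, 25.5% and 22.9%. Ube2c rose from 35.1 and 36.1 to 95 and 88.3 CPM (1.45 on the log2 scale), but was not called with cells thinned to 1000 UMIs, at 0.79. At an equal depth of 2000 UMIs, 8.88% and 6.21% of assembloid goblet cells had an Mki67 UMI against 15.6% and 13.5% of other assembloid cells, and 8.15% and 11.4% of tissue goblet cells.

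A second fit asked whether the difference between assembloids and tissue was larger or smaller in goblet cells than in the other epithelial cells of the same libraries. It used 8 sums with the library as a block and tested the interaction of setting and cell class in edgeR over 16109 genes. The interaction was above 0 in 1568 genes (9.73%) and below 0 in 922 (5.72%) at an adjusted p under 0.05. These counts depended on the fit, with 307 calls in all without the block, 226 after thinning each cell to 1000 UMIs, and 1137 and 1226 without tissue replicate 1 or 2. A positive value means that the gene was higher, or less reduced, in assembloid goblet cells than the change in other cells would give.

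Of 19 secreted products 12 lay above 0 and 1 below, against 9.73% and 5.72% of all genes. Tff3 had an interaction of 1.60 ± 0.19 (log2, SE, adjusted p = 0.0035), and its level in other cells was 545 and 476 CPM in assembloids and 385 and 383 CPM in tissue. Agr2 had 1.72 ± 0.20, Retnlb 2.55 ± 0.26, Ang4 2.27 ± 0.23 and Fcgbp 0.93 ± 0.16. The Fcgbp call was lost at a threshold of 0.5%, at 0.40, with cells that carried Mki67 or Top2a left out, at 0.30, and with the 6% of cells with most UMIs left out, at 0.71. In other cells Agr2 stood at 767 and 1048 CPM in tissue and 433 and 524 CPM in assembloids, and Retnlb and Ang4 overlapped between the settings. Sval1, although lower in assembloid goblet cells, had 2.14 ± 0.31, and other cells went from 146 and 224 CPM in tissue to 4.13 and 5.16 CPM in assembloids. The rule genes also took a larger share of low-count barcodes in tissue, as given above, and the part of free RNA in the levels of other tissue cells was not tested. Spdef had 1.24 ± 0.11 and Atoh1 1.36 ± 0.30 (adjusted p = 0.027), the latter lost without assembloid replicate 2, at 0.77. Atoh1 was also lost at a threshold of 0.5% (0.99), with at most 5% mitochondrial UMIs (1.17), with the 6% of cells with most UMIs left out (1.25), with Mki67 or Top2a cells left out (0.91) and with thinned cells (1.61). Spdef was lost at a threshold of 0.5%, at 0.77. Without the library block Agr2 (1.78), Retnlb (2.52), Ang4 (2.21), Fcgbp (0.96), Sval1 (2.28), Atoh1 (1.41) and Spdef (1.25) were not called, at nearly the same size. Of 25 cell cycle genes 18 lay below 0 and none above by edgeR.

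Among called genes whose mean level reached 6 (log2 CPM), the 5 highest interactions were Sycn, Guca2a, Sprr2a3, Klk1 and Ly6a. Guca2a, the hormone guanylin and a listed colonocyte marker, stood at 399.5 and 691 CPM in assembloid goblet cells against 808 and 845 CPM in tissue. Other cells went from 1654 and 2214 CPM in tissue to 89.3 and 107 CPM (interaction 3.72 ± 0.20, adjusted p = 2.9e-04). Klk1 in other cells went from 753 and 819 to 9.72 and 10.03 CPM (3.51 ± 0.17). Ly6a and Sprr2a3 rose in both classes, and more in goblet cells, from 23.9 and 31.9 to 1181 and 1613 CPM against 171 and 215 to 864 and 927 CPM for Ly6a. In the same set the 5 lowest were Ccl6, Ndrg1, Atp2c2, Muc4 and Top2a. Ndrg1, a hypoxia-induced gene, was already at 151 and 140.3 CPM in tissue goblet cells against 24.3 and 27.3 CPM in other tissue cells, and stood at 623 and 659.7 and 586 and 582 CPM in assembloids. Atp2c2, a calcium pump of the Golgi apparatus, stood at 251.4 and 242 CPM in goblet and 38.4 and 38.02 CPM in other tissue cells. In assembloids it stood at 377 and 247 against 274 and 165 CPM. Unlike Ndrg1, it was not called between goblet cells of assembloids and tissue (0.43 ± 0.25, adjusted p = 0.19, edgeR). In both genes goblet cells lay further above other cells in tissue than in assembloids.

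**Figure D4:**
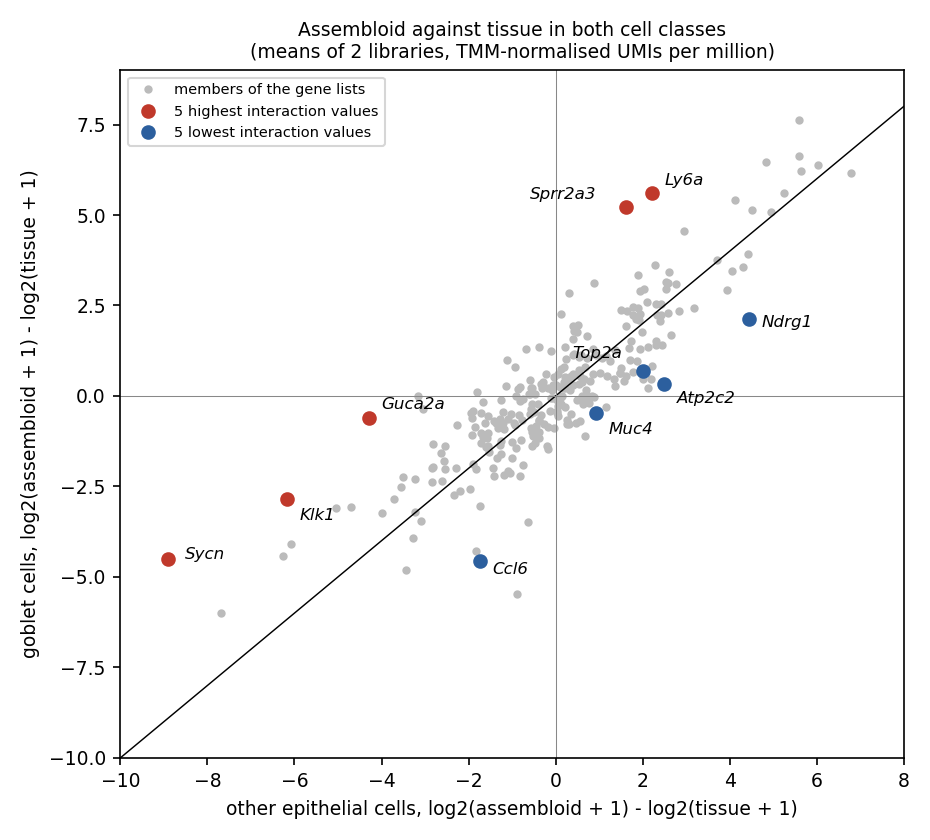
Difference between assembloid and tissue on the log2(CPM + 1) scale in goblet cells (vertical) and in other epithelial cells (horizontal), from means of 2 libraries. Grey points are members of the gene lists, and the line is an equal difference in both classes. Sycn, Guca2a, Klk1, Sprr2a3 and Ly6a lie above the line and Ccl6, Ndrg1, Atp2c2, Muc4 and Top2a below it.

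Within the goblet cells, products were spread unevenly. Cells with at least 2000 UMIs were thinned to 2000 UMIs, which kept 473 and 306 assembloid and 712 and 1048 tissue goblet cells. Tff3 was found in 99.6% and 99.7% of assembloid goblet cells, with medians of 16 and 23 UMIs, and in 74.7% and 79.1% of tissue goblet cells, with medians of 2 and 2 UMIs. Other cells carried a Tff3 UMI in 37.8% and 34.1% of cases in assembloids and 48.4% and 56.05% in tissue. The 10% of cells with most Tff3 held 30.01% and 24.99% of Tff3 UMIs in assembloids and 58.1% and 59.2% in tissue. The Tff3 UMIs were thus spread more evenly over assembloid than over tissue goblet cells in both pairs of libraries.

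Zg16 was concentrated in both settings. A UMI was found in 26.4% and 39.9% of assembloid goblet cells (22.5 to 30.6% and 34.3 to 45.6%), against 7.33% and 7.17% of other assembloid cells. In tissue it was found in 69.2% and 81.3% of goblet cells but also in 54.3% and 65.9% of other cells, so that detection hardly told the classes apart there. At least 10 Zg16 UMIs were carried by 42 and 46 assembloid goblet cells (8.88% and 15.03%) and by 23.7% and 20.7% in tissue. The 10% of cells with most Zg16 held 86.8% and 74.1% of Zg16 UMIs in assembloids and 78.05% and 74.7% in tissue.

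The cells with at least 10 Zg16 UMIs, a limit set after the values were seen, also carried more of some other products. In assembloids their mean Tff3 was 38.4 and 42.3 UMIs per 2000 against 18.7 and 25.1 in the rest, Fcgbp 3.40 and 6.11 against 1.18 and 2.15 and Clca1 1 and 1.78 against 0.0882 and 0.204. Reg4 stood at 0.548 and 0.457 against 0.292 and 0.950 in assembloids and, lower in Zg16-rich cells, at 3.29 and 2.59 against 4.45 and 3.47 in tissue. In assembloids Spink4 was nearly level, at 37.05 and 38.1 against 33.2 and 38.4. Tissue showed the same order for Tff3 (31.1 and 21.4 against 4.37 and 3.01), Fcgbp (21.2 and 17.5 against 1.90 and 2.06) and Clca1 (13.1 and 11.9 against 0.873 and 0.966). Muc2 was higher in Zg16-rich cells of assembloids (9.07 and 13.8 against 5.56 and 10.1) and lower in those of tissue (27.9 and 26.2 against 48 and 32.5). Before thinning the Zg16-rich assembloid cells were deeper, with median depths of 10270 and 22380 UMIs against 4707 and 19190.

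Slpi was found in 31.7% and 37.2% of assembloid goblet cells and 7.28% and 7.999% of other assembloid cells, against 1.69% and 1.24% of tissue goblet cells. Retnlb was found in 13.9% and 22.6% of assembloid goblet cells, 0.776% and 0.763% of other assembloid cells and 3.37% and 4.39% of tissue goblet cells. Clca1 was found in 8.46% and 15.4% of assembloid goblet cells and 0.926% and 0.779% of other assembloid cells, against 41.7% and 48.3% of tissue goblet cells and 13.98% and 21.4% of other tissue cells. Atoh1 was found in 1.69% and 6.21% of assembloid goblet cells and 21.8% and 20.99% of tissue goblet cells, and in 0.140% and 0.119% and 1.86% and 2.94% of other cells. In all 4 genes both assembloid libraries lay on the same side of both tissue libraries.

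**Figure D5:**
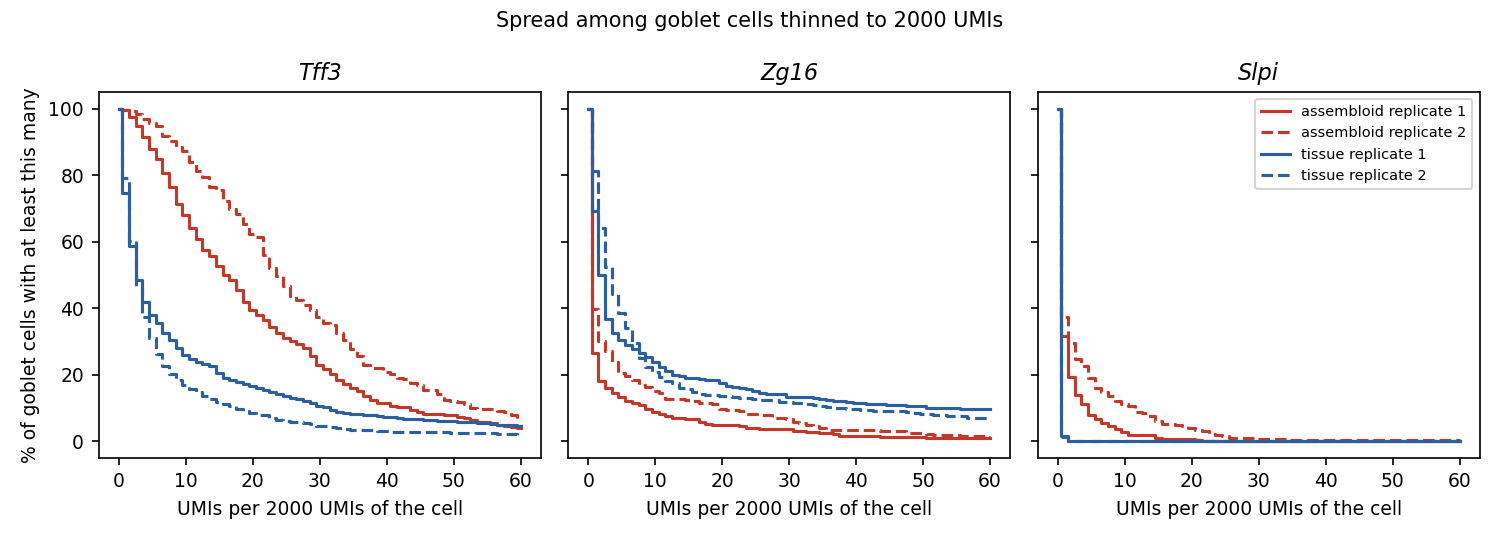
Percent of goblet cells that carried at least a given number of UMIs of Tff3, Zg16 or Slpi after thinning to 2000 UMIs, in 2 assembloid (red) and 2 tissue (blue) libraries. The Tff3 curves of assembloids fall slowly and those of tissue early, with medians of 16 and 23 and 2 and 2 UMIs, Zg16 has a long tail in both, and Slpi is nearly absent from tissue.

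The 34 organoid cells that met the rule give a further setting, described here without a test. Their Spink4 (13863 and 14390 CPM) and Agr2 (11378 and 7642 CPM) were in the range of the other settings. Muc2 (1404 and 3967 CPM) and Fcgbp (440 and 318 CPM) lay below all 4 other libraries. Tff3 stood at 7960.3 and 7921 CPM, between tissue and assembloids. Zg16, however, stood at 5.21 and 3 CPM, which rests on 2 and 1 UMIs, and Clca1 at 65.1 and 12 CPM. Both lay below all 4 other libraries. The Paneth cell genes Mmp7 (823 and 786 CPM), Lyz1 (685 and 417 CPM) and Itln1 (326 and 258 CPM) were far above the assembloid levels of 153 and 117, 0.301 and 0.741 and 1.20 and 1.30 CPM. Slpi had no UMI in the organoid cells. Slc16a3 and Bnip3 stood at 28.7 and 60.01 and 78.1 and 75.01 CPM in organoids, between tissue and assembloids.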

How the data were processed

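Droplet-based single cell RNA sequencing was deposited as matrices of UMI counts per gene and barcode, 1 for each of 8 libraries. Per the labels, the authors made these counts with Cell Ranger on mm10. The submitters' processing notes name version 6, the file headers name 7.1.0 for all 6 epithelial libraries and 6.0.1 for stroma, and whether intronic reads were counted is not given in the sources used here. Cells were chosen by the rule given in the report, and doublets were not removed. Counts were summed over goblet and other epithelial cells of each library. Sums were tested with edgeR 4.0.16 (filterByExpr, TMM, glmQLFit and glmQLFTest, R 4.3.3) with Benjamini-Hochberg adjustment and a threshold of 0.05. The assembloid and tissue comparison used 4 sums without a block, and the interaction used 8 sums with the library as a block. DESeq2 1.42.0 was an alternative. The fits were first tested on simulated data. Levels are TMM-normalised CPM. Depth per goblet cell is given in the report, and intervals are exact binomial.

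Genes named are the 10 highest and 10 lowest called log2 fold changes at a mean level of 6 or more (log2 CPM) and with no overlap, the 3 highest, 3 lowest and 3 most abundant members of each list, the 5 highest and 5 lowest interactions, and the 12 highest and 6 lowest genes against other assembloid cells. Outside the lists, mitochondrial, ribosomal protein and immunoglobulin genes and the genes of the rule were left out of these rankings. The members and lists were chosen with earlier results of these data known. Genes of the rule were part of the fits over all genes, but were left out of the list counts and are reported without a test. Of these names, not each is printed. Alternatives were other thresholds, filters, depths, scalings and blocks and leaving out each library in turn. Cells of at least 5000 UMIs and scaling by total UMIs were added after the data were seen. Promoters are from RefSeq.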

Additional observations from a re-analysis of the deposited data

Results flagged for a closer look

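In 10 genes the difference between assembloids and tissue was not the same in goblet cells and in other epithelial cells, as tested by the interaction in edgeR. These are the 5 highest and 5 lowest values of the called genes whose mean level reached 6 on the log2 CPM scale. Above 0 were Sycn (4.71), Guca2a (3.72), Sprr2a3 (3.68), Klk1 (3.51) and Ly6a (3.50). Below 0 were Ccl6 (-2.71), Ndrg1 (-2.29), Atp2c2 (-2.10), Muc4 (-1.37) and Top2a (-1.28). Sycn stood at 40.3 and 55.6 CPM in assembloid goblet cells and 3.94 and 5.31 CPM in other assembloid cells, against 1121 and 1105 and 2592 and 2775 CPM in tissue. Ccl6 stood at 57.1 and 57.4 and 23.4 and 16.2 CPM in assembloids, against 1389.8 and 1384 and 58.5 and 78.4 CPM in tissue. Muc4 stood at 119 and 134 and 43.9 and 44.8 CPM in assembloids, against 183 and 169 and 22.1 and 23.2 CPM in tissue. Top2a stood at 142 and 66.3 and 326 and 166 CPM in assembloids, against 66.7 and 61.4 and 70.5 and 50.6 CPM in tissue, and its call was lost without the library block, where Top2a had an interaction of -1.25. No group had the 4 samples that a check for single outlying samples needs.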

How the results depend on the processing

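The count of genes called between assembloid and tissue goblet cells (6432) stood between 1909 and 7403 when 1 library was left out and fell to 2237 with cells thinned to 1000 UMIs, where fewer genes were tested. With the replicate block it was 6571. Across genes, the replicate differences of both settings correlated with r = 0.058. This single value cannot show whether the replicate numbers pair the samples, as depth also differed between the libraries of a setting. The block brought Agr2 and Muc13 past the threshold. The count of interaction calls (2490) stood between 1137 and 3513 when 1 library was left out, and at 1096 with at most 5% mitochondrial UMIs, 226 with thinned cells and 307 without the library block. The cause was not tested. The mean goblet share in assembloids moved to 5.16% at a threshold of 0.5% and 1.56% at 2%. The mean share in tissue (40.7%) moved to 56.1% and 14.1% at these thresholds, to 50.5% with at most 5% mitochondrial UMIs, 33.7% with at least 1000 genes and 2000 UMIs, 32.2% with at least 5000 UMIs and 43.2% when thinned before the rule. Without thinning, the mean percent of assembloid goblet cells with a UMI was 48.3% for Zg16, 26.8% for Clca1, 33.0% for Retnlb, 49.0% for Slpi, 22.3% for Mki67 and 18.0% for Atoh1. The difference of Spdef between assembloids and tissue went from 0.56 without assembloid replicate 1 to -0.036 without assembloid replicate 2, and was -0.25 when scaled by total UMIs. Among 87 named genes of that comparison, 11 values lost their call and 17 gained one under alternatives other than leaving out a library, Fcgbp in 4 of them. Over 18 interaction genes, 17 such values lost their call, 8 of them without the library block. Genes with few UMIs were limited more in assembloid goblet cells, where 3 counts correspond to 0.902 and 0.556 CPM, than in tissue goblet cells, at 0.185 and 0.201 CPM.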
